A study of Mus musculus with 111 samples.

Results

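Experiment 2 compared single mouse embryos at the 2-cell stage after injection of siRNAs against Nr5a2 with embryos injected with control siRNAs. It was the smallest of 3 experiments and held 23 embryos, 16 of the 55 knockdown and 7 of the 56 control embryos analysed here, chosen by the experiment and arm that their labels give. All embryos were of strain B6129F1. Their oocytes received 2 siRNAs together (20 µM of each) by injection at the germinal vesicle stage, along with a marker RNA (150 ng per µl). Arrest medium kept them immature for 5 more hours. After 12 hours of maturation came in vitro fertilization and culture in KSOM. The marker RNA coded for H2B-rsEGFP in the knockdown arm and for H2B-EGFP in the control arm, so siRNA and marker RNA changed together and their effects cannot be told apart. Experiments 1 and 3, with 40 and 48 embryos and controls of their own, are used here only for comparison.

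Nr5a2, an orphan nuclear receptor, sits on DNA as a single molecule at a short response element and can recruit coactivators to its targets. In mouse ES cells and the early embryo it is known as an activator of pluripotency genes. The 2-cell stage is when the mouse embryo makes its main wave of own transcripts while RNA left by the oocyte is broken down, so a loss of a transcription factor at this time could be read in newly made RNA, in oocyte RNA or in both. The question of the comparison was which RNAs differed in the embryos that had received the Nr5a2 siRNAs.

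The response element searched here was TCAAGGNCA, on either strand. In 32851 promoters of RefSeq (GRCm38.p6), each 300 bases long from 250 before to 50 after a start, 1.619% held at least 1 match. A single promoter among those of Nr5a2 and of the leading genes named below held one, that of Tmem191c, a transmembrane protein gene called lower in experiments 1 and 3. It and 1 of the promoters of Nr5a2 are shown, the target gene and the only match, with the motif in capitals, as TGACCTTGA, its form on the opposite strand.
Nr5a2, chr1:136953581-136953880, minus strand: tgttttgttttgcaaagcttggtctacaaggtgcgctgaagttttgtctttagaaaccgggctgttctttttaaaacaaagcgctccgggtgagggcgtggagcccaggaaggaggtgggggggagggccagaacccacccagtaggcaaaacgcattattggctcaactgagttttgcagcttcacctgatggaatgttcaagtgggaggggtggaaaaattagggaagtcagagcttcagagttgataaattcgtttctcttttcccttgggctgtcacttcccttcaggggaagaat
Tmem191c, chr16:17276050-17276349, plus strand: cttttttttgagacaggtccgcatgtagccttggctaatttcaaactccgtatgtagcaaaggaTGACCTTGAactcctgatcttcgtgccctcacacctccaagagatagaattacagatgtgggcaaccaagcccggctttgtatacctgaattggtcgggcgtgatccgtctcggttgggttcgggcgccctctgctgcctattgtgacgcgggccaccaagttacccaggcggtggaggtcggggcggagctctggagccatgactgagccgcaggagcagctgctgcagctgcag
The match begins at -186 relative to the start. Of the 12 genes with the smallest p on the lower side of experiment 2, 9 had promoters in the table, 11 in all, and 0 held the motif. On the higher side 6 of 12 genes had 7 promoters, and 0 held it. Such a match is a description of letters, and its absence covers only this window.

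The estimated counts of a control embryo summed to 2.18 to 4.09 M (median 3.86 M) and those of a knockdown embryo to 1.97 to 8.01 M (median 3.68 M). Genes with at least 10 counts numbered 12091 ± 313 (SD, n = 7) among controls and 12114 ± 735 (SD, n = 16) after knockdown, with no detected difference (two-sided exact permutation test, p = 0.939). Mitochondrial transcripts took 4.33 to 6.61% and 4.25 to 8.04% of the counts. The rsEGFP row of the marker RNA followed the labels in all 23 embryos and stood at 0 to 1.93 CPM (counts per M) in control and at 9.73 to 709 CPM in knockdown embryos. The EGFP row stood at 90.5 to 5427 and 2.20 to 103 CPM, which overlap, and both rows summed to medians of 908 and 358 CPM. The 10 markers of the 2-cell embryo summed to 965 to 3242 CPM in control and 906 to 3856 CPM in knockdown embryos. The 16 markers of cumulus and granulosa cells summed to 12.4 to 31.3 and 9.06 to 78.7 CPM, with 10 of them at a median under 1 CPM. The 10 sperm markers summed to 6.98 to 15.8 and 4.97 to 28.9 CPM, with 3 at 0 in every embryo and 9 at a median under 1 CPM. Oaz3 held most of that sum, with medians of 7.90 and 10.9 CPM. The 10 blood markers summed to 38.6 to 186 and 28.7 to 146 CPM, with 6 at a median under 1 CPM. Most of it came from Hba-a1 (medians 23.7 and 14.7 CPM) and Hba-a2 (39.8 and 38.6 CPM), while Hbb-bs and Hbb-bt were at 0 in every embryo.

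Control embryo 2 stood apart from the other 22. Its median Pearson's r with the other embryos over log2 CPM was 0.73, against 0.85 to 0.89 in the other controls and 0.82 to 0.89 in the knockdown embryos. Over the 83 measured genes of cytosolic ribosomal proteins its mean log2 CPM was 4.67, against 6.40 to 7.07 in the other controls, and over the 61 genes of ribosome biogenesis 5.21 against 6.84 to 7.47. Its library total, 2.18 M, was also the lowest of the control arm. Many of the results that rest on it are given with and without it.

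**Figure D1:**
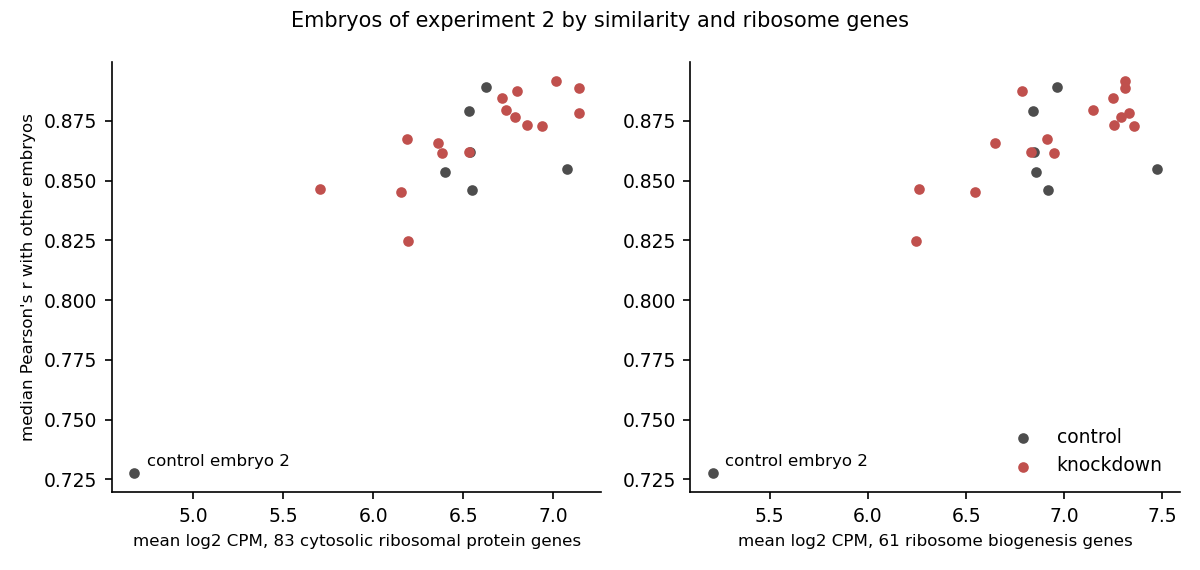
Each point is 1 embryo of experiment 2 (grey control, red knockdown). The vertical axis is its median Pearson's r with the other embryos and the horizontal axes are the mean log2 CPM of 83 cytosolic ribosomal protein genes (left) and 61 ribosome biogenesis genes (right). Control embryo 2, at an r of 0.73 with scores of 4.67 and 5.21, lies outside the range of the other 22.

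Nr5a2 fell in the knockdown embryos. Control embryos held 33.98, 104 and 198 CPM at the lowest, median and highest, and knockdown embryos 14.8, 48.2 and 119 CPM. In 15 of 16 knockdown embryos the level lay below the control median, but only 2 lay below all controls, because control embryo 2 held the 33.98 CPM and the other controls 76.5 CPM or more. The means were 119 ± 58.4 (SD, n = 7) and 54.1 ± 23.0 CPM (SD, n = 16). On the log2 scale the means differed by -1.06 (two-sided exact permutation test over 245157 assignments, p = 0.00333). In the fit over all genes the log2 fold change of knockdown over control (log2FC) was -1.13 (SE 0.28), which did not pass at an adjusted p of 0.506 (edgeR quasi-likelihood test, Benjamini-Hochberg). Without control embryo 2 it was -1.30. The fit over all 6 groups gave -1.31 for experiment 1 and -1.07 for experiment 3, and the difference of experiment 2 from their mean was 0.063 (SE 0.31, unadjusted p = 0.842). Nr5a2 RNA thus remained in every knockdown embryo of experiment 2, at 14.8 CPM or more.

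The annotated Nr5a2 transcripts had unlike fold changes, as far as estimated counts can separate them. ENSMUST00000192929.5 had 63.3 ± 28.2 CPM (SD, n = 7) among controls and 23.8 ± 15.1 (SD, n = 16) after knockdown, with a log2FC of -1.41 (SE 0.33, edgeR adjusted p over all transcripts 0.778). ENSMUST00000192357.5 had 38.8 ± 26.5 (SD, n = 7) and 16.6 ± 7.55 CPM (SD, n = 16), with a log2FC of -1.22 (SE 0.38). ENSMUST00000027649.13 had 13.6 ± 8.65 (SD, n = 7) and 11.0 ± 5.57 CPM (SD, n = 16), with a log2FC of -0.30 (SE 0.40). ENSMUST00000168126.6 had a median of 4.66 CPM in control and 0 in knockdown embryos and a log2FC of -0.44 (SE 1.17). A separate row of the count table that carries the Nr5a2 gene identifier in place of a transcript averaged 39.9 ± 14.4 (SD, n = 7) and 42.2 ± 16.9 CPM (SD, n = 16), with a log2FC of 0.079 (SE 0.26). Differences between the transcripts were not tested, and 0 of 25957 transcripts passed.

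Over the genome, 0 of 13187 genes passed as lower (0%) and 0 as higher (0%) at an adjusted p under 0.05. At an unadjusted p under 0.05 there were 789 genes (5.98%), 463 lower (3.51%) and 326 higher (2.47%). DESeq2 called 0 lower genes and 1 higher gene, Timmdc1, with 939 at an unadjusted p under 0.05, and limma-voom called 0 in either direction, with 748. Without control embryo 2, edgeR called 0 genes and 496 of 13383 (3.71%) had an unadjusted p under 0.05. In 0 genes (0%) did all knockdown embryos lie below all controls, and in 0 (0%) did all lie above. The median log2FC was -0.016, 51.8% of genes had a negative sign, and 3.47% had an absolute log2FC of at least 1. The biological coefficient of variation between embryos was 0.557. The genes described next are therefore the 12 with the smallest unadjusted p on each side among genes with a mean of at least 16 CPM, given with their values; apart from the test of Nr5a2 on its own, none of them passed.

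Timmdc1, an assembly factor of mitochondrial complex I, had the smallest p. Control embryos held 3.48, 8.85 and 11.8 CPM at the lowest, median and highest, and knockdown embryos 7.37, 32.9 and 95.3 CPM. The level in 15 of 16 knockdown embryos was above all 7 controls, and the remaining one was inside the control range. The log2FC was 2.24 (SE 0.43, edgeR adjusted p = 0.219), and 2.28 without control embryo 2. It passed in DESeq2 (2.23, adjusted p = 1.07e-04), in edgeR without the low-count filter (adjusted p = 0.0433) and in edgeR without knockdown embryo 13 (adjusted p = 0.0485). The 6-group fit gave -0.24 in experiment 1 and 0.43 in experiment 3, and the difference of experiment 2 from their mean, 2.17 (SE 0.74), had an adjusted p of 0.658. The gene lies on chromosome 16 from 38498347 to 38522663, minus strand (GRCm38, GENCODE M21).

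Tmem39a, a gene of an endoplasmic reticulum membrane protein, lies 36035 bases from Timmdc1 and was also among the 12 on the higher side. It stood at 68.4, 114 and 122 CPM in control and 101, 153 and 245 CPM in knockdown embryos, with 14 of 16 knockdown embryos above all controls. The log2FC was 0.69 (SE 0.18, edgeR adjusted p = 0.587). Poglut1, the gene between them, had medians of 34.9 and 38.4 CPM and a log2FC of 0.028 (SE 0.30). A second pair on the higher side, Tonsl and Ppp1r16a, lies on chromosome 15 with 31657 bases between them. Of the 3 genes in that gap, Cyhr1 had a log2FC of -0.020 (SE 0.35), Kifc2 had one of 1.29 (SE 0.49, edgeR adjusted p = 0.7995), and Foxh1 was not among the genes tested. They were chosen after values were seen, as were the other neighbouring, overlapping and partner genes given here.

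Afg3l1, a subunit of a protease of the mitochondrial inner membrane, had 6.97, 13.3 and 21.4 CPM in control and 13.5, 30.5 and 70.0 CPM in knockdown embryos, with a log2FC of 1.29 (SE 0.32, edgeR adjusted p = 0.506). Each of the 16 knockdown embryos lay above the control median, and 12 above all controls. Dbt, a subunit of the branched-chain keto acid dehydrogenase, had medians of 101 and 173 CPM and a log2FC of 0.77 (SE 0.23, edgeR adjusted p = 0.688).

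Tonsl and Bptf, tied to chromatin, were there as well. Tonsl, which binds newly made histones and acts at damaged replication forks, had 15.7, 26.9 and 42.9 CPM in control and 30.7, 52.0 and 80.5 CPM in knockdown embryos. The lowest knockdown embryo was above the control median, and 10 of 16 were above all controls. The log2FC was 0.85 (SE 0.23, edgeR adjusted p = 0.592). Bptf, a subunit of the NURF chromatin remodeller, had medians of 132 and 175 CPM and a log2FC of 0.53 (SE 0.16, adjusted p = 0.688).

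The remaining genes of the higher side were of varied kinds. Ankrd42, which codes for an ankyrin repeat protein, had 3.49, 11.7 and 20.3 CPM in control and 16.6, 26.9 and 68.9 CPM in knockdown embryos, with a log2FC of 1.28 (SE 0.31, edgeR adjusted p = 0.506). Here 14 of 16 knockdown embryos were above all controls. Ankrd42 overlaps Ccdc90b on the other strand, which had a log2FC of -0.29 (SE 0.31). Poglut3, a protein O-glucosyltransferase gene, had medians of 5.22 and 19.8 CPM and a log2FC of 1.76 (SE 0.46), with 0.90 in experiment 1 and 0.86 in experiment 3. Rpgrip1, whose product works at the base of the photoreceptor cilium, had 0.86, and Nme5, of the nucleoside diphosphate kinase family, 0.89. Rnft1, a RING finger gene, had 0.93, and Ppp1r16a, a regulatory subunit of protein phosphatase 1, had 1.17.

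On the lower side, Tagln2, an actin-binding protein of the transgelin family, had the smallest p. Its levels were 16.0, 55.5 and 85.4 CPM in control and 4.74, 17.9 and 45.6 CPM in knockdown embryos. All 16 knockdown embryos were below the control median and 7 below every control. The log2FC was -1.58 (SE 0.34, edgeR adjusted p = 0.503), -1.45 without control embryo 2, 0.38 in experiment 1 and 0.24 in experiment 3. Tubb6, a beta-tubulin gene, was the other cytoskeletal member, with 102, 208 and 437 CPM in control and 58.2, 96.2 and 234 CPM in knockdown embryos. Its log2FC was -0.97 (SE 0.25, edgeR adjusted p = 0.587), and -0.70 without control embryo 2, which held the highest level.

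Metabolic genes on this side were Adh5, Ftl1 and Eno1b. Adh5, the glutathione-dependent formaldehyde dehydrogenase, had 95.5, 203 and 289 CPM in control and 40.02, 94.4 and 155 CPM in knockdown embryos, with a log2FC of -0.97 (SE 0.23, edgeR adjusted p = 0.506). All 16 knockdown embryos were below the control median and 9 below all controls. Ftl1, the light chain of the iron store ferritin, was the most abundant of the 24 genes, with 420, 556 and 1020.4 CPM in control and 224, 320 and 647 CPM in knockdown embryos. Its log2FC was -0.81 (SE 0.19, edgeR adjusted p = 0.506), and 14 of 16 knockdown embryos lay below all controls. The ferritin heavy chain gene Fth1 had -0.40 (SE 0.16, edgeR adjusted p = 0.7995). Of the 31-base words in the Ftl1 transcripts, 64.2% occur in other annotated genes too, so part of its count could come from copies.

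Eno1b is a near copy of the enolase gene Eno1 on chromosome 18 and shares 89.2% of its 31-base words with other genes. It had 30.4, 79.9 and 150 CPM in control and 5.44, 29.3 and 66.8 CPM in knockdown embryos, with a log2FC of -1.41 (SE 0.35, edgeR adjusted p = 0.506). Eno1 went the other way, with 31.3, 52.7 and 79.6 CPM in control and 37.9, 83.8 and 139 CPM in knockdown embryos and a log2FC of 0.67 (SE 0.24, edgeR adjusted p = 0.7995). Of the sum of both genes, Eno1b took a median of 65.3% in control and 24.7% in knockdown embryos of experiment 2. It took 43.0 and 43.6% in experiment 1 and 42.6 and 32.8% in experiment 3. The split of counts between such copies is uncertain.

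Of the regulators on the lower side, Sebox, an oocyte homeobox factor, had 90.6, 164 and 267 CPM in control and 74.5, 99.8 and 170 CPM in knockdown embryos, with a log2FC of -0.68 (SE 0.18, edgeR adjusted p = 0.587). Eya3, a phosphatase and transcriptional coactivator, had 59.5, 78.4 and 88.7 CPM in control and 30.9, 53.7 and 62.9 CPM in knockdown embryos. Its SE was the smallest among the lower genes, and all 16 knockdown embryos were below the control median and 13 below all controls, with a log2FC of -0.57 (SE 0.15, edgeR adjusted p = 0.587). Zfp597, a zinc finger gene, had medians of 28.4 and 17.7 CPM, with 14 of 16 knockdown embryos below all controls and a log2FC of -0.67 (SE 0.18). It overlaps Naa60 on the other strand, which had -0.64 (SE 0.34), or 0.032 without control embryo 2.

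Mavs, the adaptor of antiviral RNA sensing on mitochondria, had 53.2, 88.1 and 156 CPM in control and 36.6, 55.4 and 92.7 CPM in knockdown embryos. The log2FC was -0.75 (SE 0.19, edgeR adjusted p = 0.587), with -0.49 in experiment 1 and -0.23 in experiment 3. Ccdc69, a coiled-coil protein gene, had -0.71 (SE 0.20) here, -0.37 in experiment 1 and -0.14 in experiment 3. Tex261, a gene of a membrane protein, had medians of 35.7 and 20.9 CPM and a log2FC of -0.80 (SE 0.19), with 12 of 16 knockdown embryos below all controls.

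**Figure D2:**
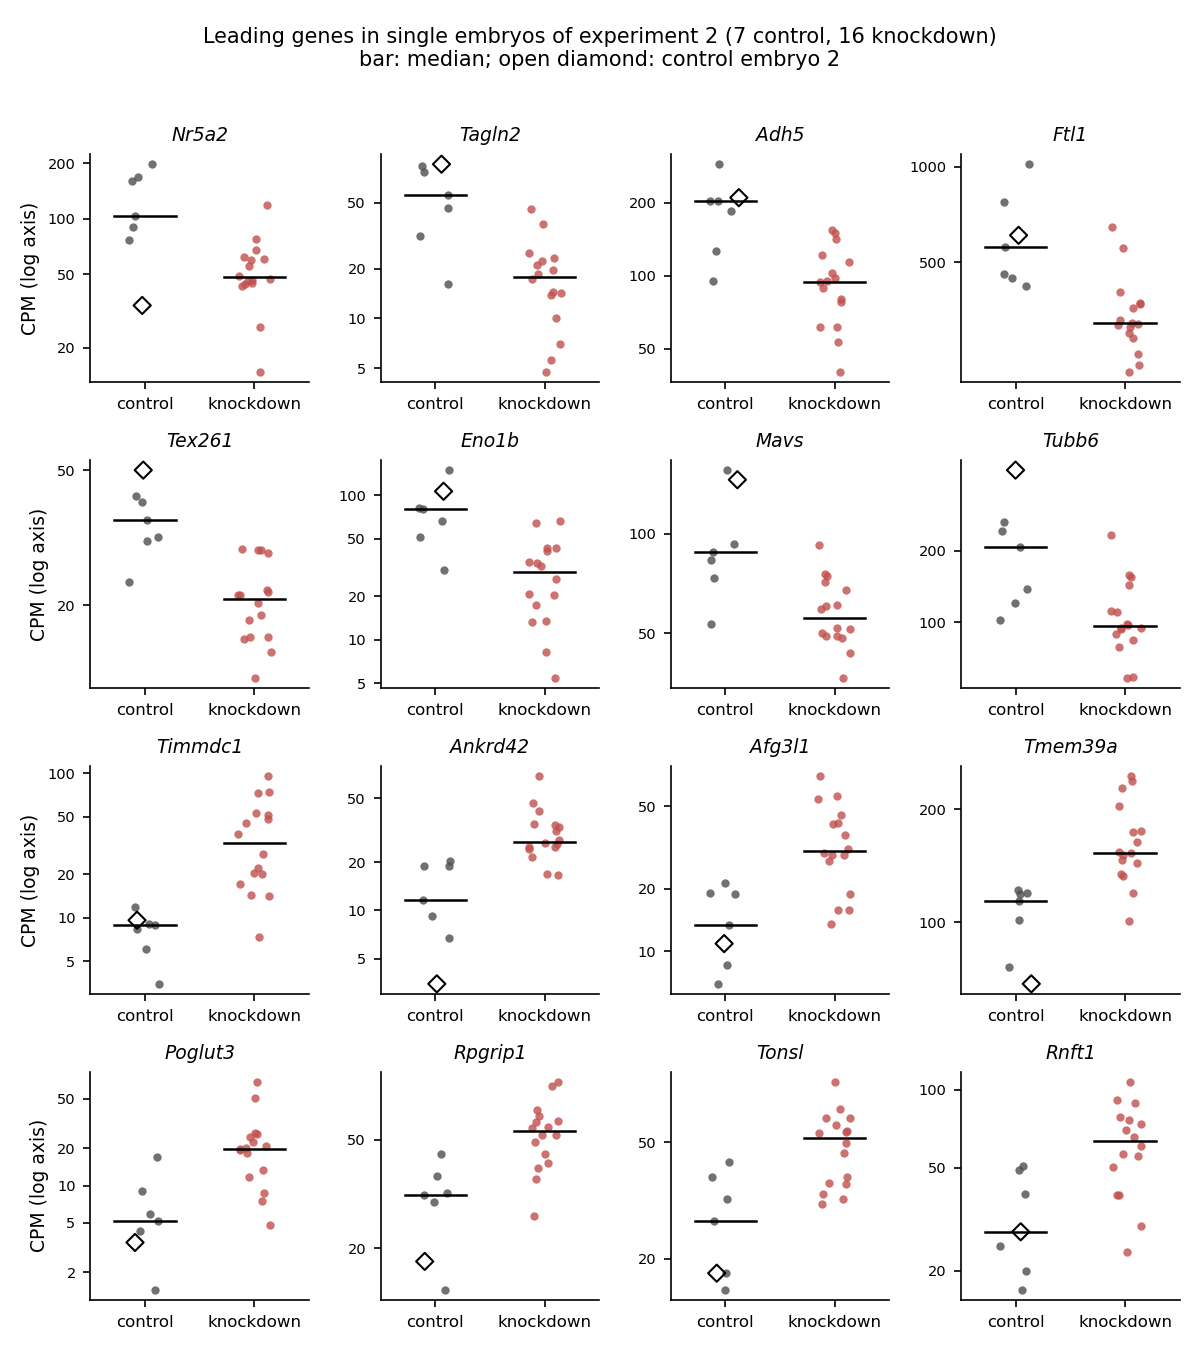
CPM (log axis, a scale of its own in each panel) of Nr5a2, 7 other lower-side genes and 8 higher-side genes in single embryos of experiment 2 (grey, 7 control; red, 16 knockdown). Bars are medians and the open diamond is control embryo 2. In each panel the arms overlap, as for Timmdc1, where 15 of 16 knockdown embryos are above all controls and 1 is not.

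Read in the other experiments, these 24 genes had smaller median fold changes. Of the 12 lower genes, Nr5a2 included, 4 kept their sign in experiment 1 and 5 in experiment 3, with 3 shared (Nr5a2, Mavs and Ccdc69). Their median log2FC was -0.80 here, against 0.028 in experiment 1 and 0.029 in experiment 3. Of the 12 higher genes, 7 kept theirs in experiment 1 and 10 in experiment 3, with 6 shared, and the medians were 0.91, 0.019 and 0.31. These genes were chosen for their p in experiment 2, which raises their size there. The test of the difference of experiment 2 from the mean of experiments 1 and 3 passed for 0 of the 24 (edgeR adjusted p from 0.231 to 0.990), so in that fit none is shown to respond in experiment 2 alone. Eya3 passed this test among genes with a mean of at least 16 CPM, and also in DESeq2.

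**Figure D3:**
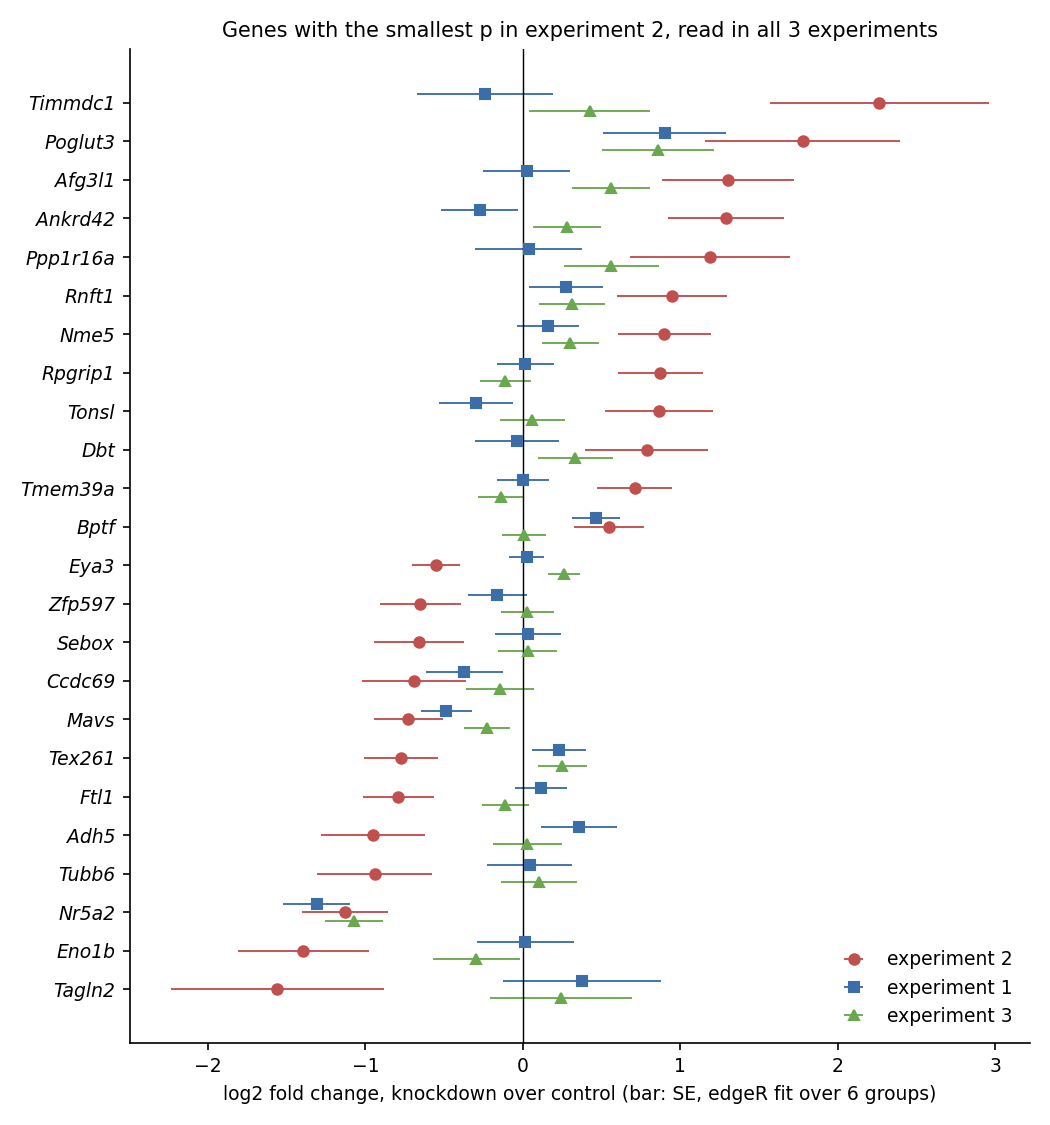
Log2 fold changes (log2FC) of knockdown over control with SE, from edgeR over all 6 groups, for the 24 genes with the smallest p in experiment 2, in experiment 2 (red circles), 1 (blue squares) and 3 (green triangles). For Nr5a2 the 3 estimates lie between -1.31 and -1.07; for the lower genes as a set the medians in experiments 1 and 3 are 0.028 and 0.029.

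The difference itself was tested over 17109 genes. It passed for 2 lower genes (0.0117%), Casd1 and Retn, and for 0 higher genes (0%), with 894 genes (5.23%) at an unadjusted p under 0.05. Casd1 was at 0 in most embryos, and Retn had medians of 1.5 to 7 counts over the 6 groups. Casd1, a sialic acid O-acetyltransferase gene, had 0 to 18 counts in the controls of experiment 2, with 5 of 7 above 0, and at most 1 count in the knockdown embryos, with 2 of 16 above 0. In experiments 1 and 3 it was at 0 in 73 of 88 embryos and reached 35 counts in a knockdown embryo of experiment 1. Retn, the gene of the adipose hormone resistin, reached 107 counts in control embryo 6 of experiment 2, where the control median was 7, and 0 to 9 counts in the knockdown embryos, with a median of 3.5. Retn also reached 76 counts in a knockdown embryo of experiment 1 and 164 in a control embryo of experiment 3. In the 6-group fit the log2FC of Casd1 was 2.90 in experiment 1, -4.91 in experiment 2 and 0.16 in experiment 3. For Retn it was 2.56, -2.85 and -0.18, so experiment 1 had the opposite sign for both genes. Both differences had an edgeR adjusted p of 0.0298. Without control embryo 2, Retn alone passed. The difference test was not repeated without control embryo 6, which held the 107 counts of Retn. Neither gene was among the genes tested in the fit of experiment 2 alone.

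Genes called in experiments 1 and 3 give a view of experiment 2 that its embryos did not choose. Those experiments called 59 lower (0.428%) and 136 higher genes (0.985%) of 13801. Of the lower genes 58 were measured in experiment 2, and 43 (74.1%) had a negative fold change there, beside 51.8% of all genes. Their median log2FC was -0.16, against -0.63 in experiments 1 and 3. Nr5a2 was the single one at an unadjusted p under 0.05 (1.72%, beside 3.51% lower of all genes). Without control embryo 6 of experiment 2 the count with a negative sign was 30, and without control embryo 2 it was 48; the number of genes measured can differ by setting. Of the higher genes measured in experiment 2, 50 (45.0%) had a positive and 61 a negative fold change. Over all 13187 genes 6362 were positive and 6825 negative. Their median was -0.063, against 0.61 in experiments 1 and 3, and 38 were positive without control embryo 2. At an unadjusted p under 0.05, 5 of them were positive and 4 negative in experiment 2. In both directions 0 of these genes passed in experiment 2.

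Among the lower genes named by size in experiments 1 and 3, Zfp599, a zinc finger gene, had 78.4, 156 and 312 CPM in control and 58.2, 96.3 and 277 CPM in knockdown embryos, with a log2FC of -0.56 (SE 0.28, edgeR adjusted p = 0.839), against -1.10 in experiments 1 and 3. Tmem191c, whose promoter is shown above, had 23.2, 49.0 and 60.99 CPM in control and 10.2, 30.3 and 88.2 CPM in knockdown embryos. Its log2FC was -0.36 (SE 0.29), against -0.78 in experiments 1 and 3. It overlaps Pi4ka on the other strand, which had 0.72 (SE 0.22, edgeR adjusted p = 0.688). Rffl, a ubiquitin ligase gene, had -0.42 (SE 0.35) here and -0.87 there. The HMG-box factor Sox15 had -0.054 (SE 0.43) here and -0.99 there, with medians of 23.2 CPM in control and 31.4 CPM in knockdown embryos. Ggt6, of the gamma-glutamyltransferase family, had 0.14 (SE 0.36) here and -1.06 there.

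On the higher side the largest folds of experiments 1 and 3 were split. Pam, the enzyme that amidates peptide hormones, had 3.64, 7.38 and 12.5 CPM in control and 3.32, 14.0 and 39.3 CPM in knockdown embryos, with a log2FC of 1.22 (SE 0.42, edgeR adjusted p = 0.7995), against 1.34 in experiments 1 and 3. Lrtm1, a gene of a membrane protein with leucine-rich repeats, had 2.86, 7.38 and 16.2 CPM in control and 2.81, 10.2 and 38.4 CPM in knockdown embryos, with a log2FC of 0.96 (SE 0.45, edgeR adjusted p = 0.813), against 1.48. For both, 12 of 16 knockdown embryos lay above the control median. Both genes lay under the level of 16 CPM set for named genes and were chosen after their values were seen.

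Other genes of the higher side had the opposite sign or a small fold change in experiment 2. Omd, which codes for the matrix proteoglycan osteomodulin, had 5.55, 30.2 and 54.6 CPM in control and 1.88, 12.0 and 24.2 CPM in knockdown embryos, with a log2FC of -1.20 (SE 0.39, edgeR adjusted p = 0.781), against 0.81. All 16 knockdown embryos were below the control median. Cpox, an enzyme of heme synthesis, had -0.54 (SE 0.34), against 0.79. Xaf1, an apoptosis factor, had -0.48 (SE 0.55), against 0.78. Zfp101, a zinc finger gene, and Alpk2, an alpha-kinase gene, had 0.16 (SE 0.39) and 0.083 (SE 0.46), against 0.96 and 0.91. Experiments 1 and 3 were unlike in the 6-group fit, with 1.24 and 0.44 for Omd, 1.14 and 0.49 for Cpox, and 1.39 and 0.26 for Xaf1. These 3 genes passed there in experiment 1 and not in experiment 3. Zfp101 had 1.18 and 0.77, and Alpk2 1.05 and 0.80. For Omd the difference of experiment 2 from the mean of experiments 1 and 3 was -2.03 (SE 0.47, edgeR adjusted p = 0.107), which did not pass in edgeR but did in DESeq2.

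**Figure D4:**
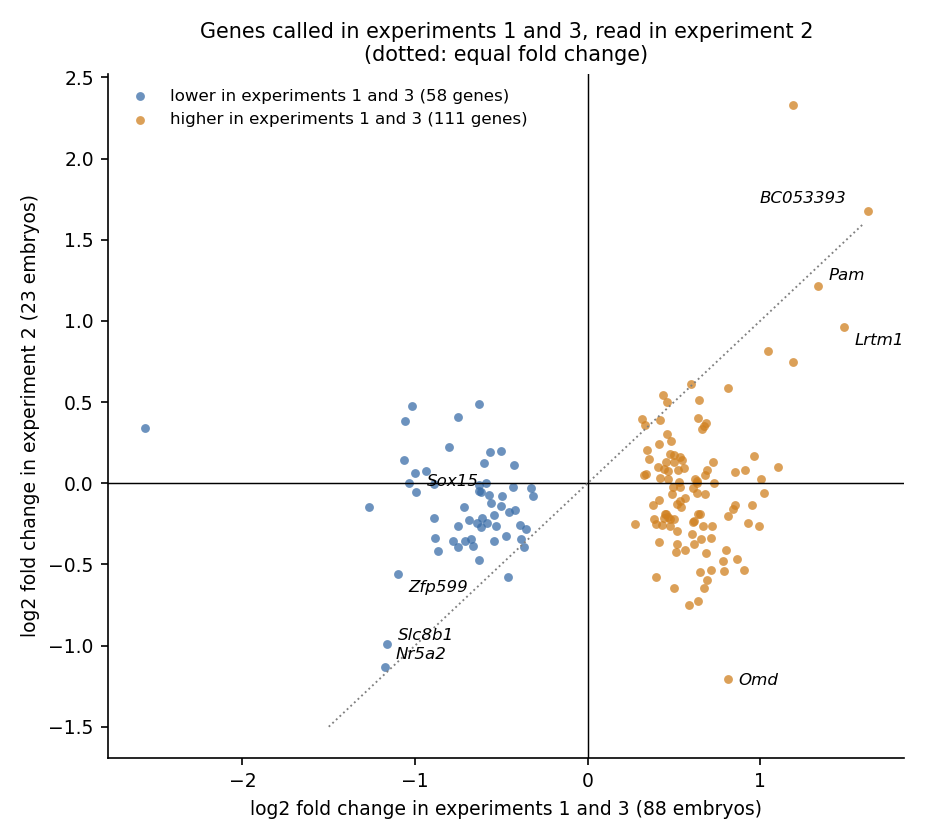
Each point is a gene called in experiments 1 and 3 (88 embryos) and measured in experiment 2. The horizontal axis is its log2FC in experiments 1 and 3 and the vertical axis that in experiment 2; blue marks the 58 lower and orange the higher genes, and the dotted line marks equal values. Nr5a2 and Pam lie near the line, while the medians in experiment 2 are -0.16 and -0.063.

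Gene groups were described by their counts, and 0 members of any group passed in experiment 2. Of the genes with a short burst of expression at the 2-cell stage (Zscan4, Tdpoz and Usp17l families, Zfp352 and others), 25 of 27 were measured, 15 with a negative and 10 with a positive fold change. Their median was -0.079, against -0.016 over all genes, and -0.18 without control embryo 2. Usp17lc had the smallest p of them: 10.4, 292 and 912 CPM in control and 12.1, 96.9 and 668 CPM in knockdown embryos, with a log2FC of -1.16 (SE 0.61, edgeR adjusted p = 0.848). Its level spanned nearly the same range in both arms, and 60.7% of its 31-base words occur in other genes. Among 28 regulators of genome activation (Obox, Dppa2, Klf and others) the median was 0.0077, or -0.065 without control embryo 2. The heat shock factor gene Hsf1 of that list had -0.47 (SE 0.19, edgeR adjusted p = 0.7995). The oocyte list, 45 genes such as Gdf9, Zp3 and Mos, had 23 negative and 22 positive members and a median of -0.0070. Without control embryo 2 it had 17 negative and 28 positive members and a median of 0.068.

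Groups tied to Nr5a2 by its known roles gave small medians too. Of 16 measured pluripotency factors, 10 were negative, with a median of -0.13 here, 0.10 in experiment 1 and 0.0053 in experiment 3. In this list 3 genes (18.8%) were lower at an unadjusted p under 0.05, beside 3.51% of all genes. Of the 19 p53 targets, 2 were lower and 1 higher by that measure, and no list was tested as a set. Nanog, a core pluripotency factor and 1 of the 3, had 3.38, 8.23 and 13.5 CPM in control and 1.59, 4.46 and 7.75 CPM in knockdown embryos. All 16 knockdown embryos were below the control median. The log2FC of Nanog was -0.84 (SE 0.31, edgeR adjusted p = 0.7995), -0.68 without control embryo 2, 0.92 in experiment 1 and 0.25 in experiment 3. Of 23 nuclear receptors and cofactors, 12 were negative and 11 positive, with a median of -0.038, and Ppara, the fatty acid sensor, had -0.82 (SE 0.55). In the list of trophectoderm and epithelium, 19 genes with a median of -0.17 (-0.0012 without control embryo 2), the cell adhesion gene Cdh1 had 58.3, 139 and 242 CPM in control and 30.99, 77.4 and 126 CPM in knockdown embryos. Its log2FC was -0.84 (SE 0.26, edgeR adjusted p = 0.736), with all 16 knockdown embryos below the control median.

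Ribosome genes were mostly on the positive side with all 23 embryos and evenly split without control embryo 2. Of 83 cytosolic ribosomal protein genes 72 had a positive fold change, with a median of 0.16, and of 61 ribosome biogenesis genes 46, with a median of 0.16. Without control embryo 2 the counts were 43 and 32 and the medians 0.014 and 0.018. Without control embryo 6 the medians were 0.30 and 0.27. Rpl10l, a retrogene of a large subunit protein, had 0.56 (SE 0.25) and Rrp1, which acts in ribosomal RNA processing, 0.54 (SE 0.25), and neither passed. The 13 protein genes of the mitochondrial genome had 11 positive members and a median of 0.093, or 0.077 without control embryo 2. The 75 nuclear genes of oxidative phosphorylation were split 37 to 38. Ndufa6 of complex I had 0.91 (SE 0.30, edgeR adjusted p = 0.7995), with 13 of 16 knockdown embryos above all controls. Its levels were low, with medians of 3.86 CPM in control and 6.88 CPM in knockdown embryos.

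Cell cycle and stress groups had small medians. The 53 DNA replication genes had 34 positive members and a median of 0.086, which was -0.0013 without control embryo 2. The replicative helicase gene Mcm4 had 27.7, 47.5 and 54.6 CPM in control and 24.7, 66.5 and 136 CPM in knockdown embryos, with a log2FC of 0.69 (SE 0.25, edgeR adjusted p = 0.7995), and 12 of 16 knockdown embryos were above all controls. The 44 mitosis genes had a median of 0.090, or -0.047 without control embryo 2. The phosphatase gene Cdc25b of that list had -0.84 (SE 0.34), or -0.53 without it. Among 19 p53 targets Bbc3, the apoptosis inducer Puma, had 1.46 (SE 0.59) at medians of 1.31 and 3.22 CPM, and the median of the list was -0.015. Stress factor Atf3 had -1.83 (SE 0.88) with all embryos but -0.44 without control embryo 2, and Dcp2, an mRNA decapping enzyme, -0.53 (SE 0.23) and -0.097. In the DNA break repair list, 38 genes, the median was 0.083. In the list of DNA methylation Dnmt3l had -0.45 (SE 0.20), or -0.29 without control embryo 2.

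**Figure D5:**
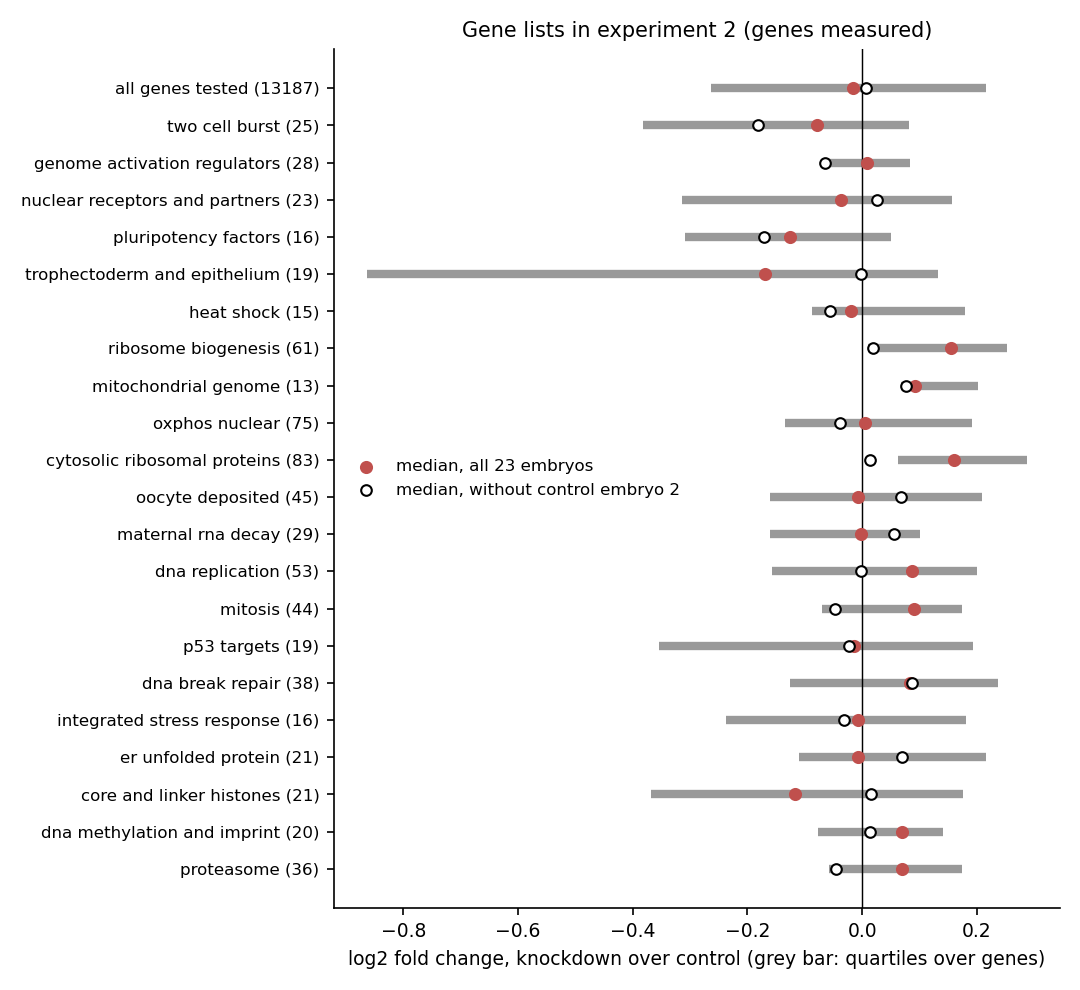
Median log2FC of knockdown over control in experiment 2 for each gene group and for all genes tested (red, all 23 embryos; open, without control embryo 2), with quartiles over genes as grey bars and the number of genes measured in brackets. The ribosomal protein and ribosome biogenesis medians of 0.16 move to 0.014 and 0.018 without that embryo.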

How the data were processed

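Single embryos were sequenced as SmartSeq2 libraries, primed with oligo dT per the labels, so they carry no strand and no molecular identifiers. The deposited estimated counts are not normalized, per the file headers and values. Named in the submitters' processing notes are kallisto 0.46.1, Trim Galore 0.6.2 and bcl2fastq, besides DESeq2 1.32.0 under R 3.5.1. No source used here names the transcript annotation. Of 119358 rows, 117194 were joined to a gene symbol through the authors' deposited table and summed to 35973 symbols (30 of them join more than 1 gene identifier). The other 2164 rows, 0.922 to 1.39% of the counts, stayed out of the library sizes and tests of genes, as did the marker rows. The H2B gene H2bc21 stayed out of rankings. The fit of transcripts left out the marker rows but kept the other rows without a symbol. The totals of estimated counts given per embryo hold all rows. Sums were rounded. The design text names 55 knockdown and 57 control embryos, and 55 and 56 were analysed.

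Genes were tested with edgeR 4.0.16 (R 4.3.3; filterByExpr by arm, TMM, quasi-likelihood F-test, Benjamini-Hochberg at 0.05, 21 residual degrees of freedom) on the 23 embryos. The difference between experiments came from 1 fit over all 6 groups, and genes called in experiments 1 and 3 from their 88 embryos with experiment as a factor. Nr5a2 alone was tested by exact permutation of log2 CPM (prior count 2). DESeq2 1.42.0 and limma 3.58.1 were alternatives. The code was tested on simulated data. CPM values use TMM-scaled totals. Exceptions, on unscaled totals, are the marker rows, the sums and values of cell type markers, and the sum and split of Eno1b and Eno1.

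The text names Nr5a2, the 12 genes per side with the smallest p and at least 16 CPM, the 6 largest folds per side among genes called in experiments 1 and 3, the called genes of the difference, and the list member with the smallest p; clone and model names were left out, and a few genes that the rule named are not reported here. Members and lists were chosen with earlier results of these data known. Each embryo was 1 sample. The labels do not say which shared a mother, so p-values measure the spread between these embryos. No 2 libraries were duplicates (highest Pearson's r 0.929). Positions are from GENCODE M21 (GRCm38), and depth limits the precision of counts of a few reads.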

Additional observations from a re-analysis of the deposited data

Results flagged for a closer look

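Among the 7 control embryos, a lone highest or lowest value was looked for in 28 measures per embryo and in 56 named genes. Dixon's Q test was used, with a nominal rate of about 1 in 20 for normally distributed values. Normality was not checked and the measures overlap, so the rate by chance is not known here. Control embryo 2 was the lone one in 7 measures. It was lowest in its median r with other embryos (0.728), library total (2.18 M), and the mean log2 CPM of the genome activation regulators (5.72), ribosome biogenesis (5.21), cytosolic ribosomal protein (4.67) and DNA replication lists (5.72). It was highest in marker RNA, at 5429 CPM, where the next control had 1873 CPM. It also held the lone highest level of Atf3 (91.9 CPM, next 17.4), Dcp2 (480 CPM, next 178) and Psmd10 (13.5 CPM, next 7.26). Control embryo 6 held the lone highest Sox15 level (128 CPM, next 41.0) and control embryo 4 that of Bbc3 (4.34 CPM, next 1.45).

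The knockdown effect of experiment 2 differed from the mean effect of experiments 1 and 3 for Casd1, by -6.44, and for Retn, by -4.04 on the log2 scale (edgeR adjusted p = 0.0298 for both). Part of each difference came from experiment 1, where the log2 fold changes were 2.90 for Casd1 and 2.56 for Retn. In experiment 3 they were 0.16 and -0.18. Casd1 was at 0 in most embryos, and Retn had a median of 7 counts in control and 3.5 in knockdown embryos of experiment 2.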

How the results depend on the processing

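Over 34 alternatives, the count of lower genes in experiment 2 was 0 except without the low-count filter, which gave 4 lower genes and 1 higher gene. DESeq2 gave 1 higher gene, and leaving out single embryos gave 0 lower and 0 to 1 higher genes. The higher gene was Timmdc1 each time. Replicate numbers shared by 7 embryos of each arm gave little sign of pairing. The deviations of same-numbered embryos, rather than their levels, correlated at -0.18 to 0.33. By this measure 2 of 7 correlated best with their own number. With a replicate block, 0 genes passed and 1251 of 12126 had an unadjusted p under 0.05. The block gave an Nr5a2 difference of -1.03 (exact sign flips, p = 0.0625) and a median of -0.22 for the p53 targets, and the signs turned for Rffl (0.030), Zfp101 (-0.21), Alpk2 (-0.32) and Sox15 (0.49). Without the block the Nr5a2 difference was between -1.33 and -0.90 in all other alternatives and passed in each. The sign of Alpk2 also turned with oocyte size factors (-0.017) and with the library total as a term (-0.041), and that of Sox15 in limma-voom (0.052). With single embryos left out, Alpk2 ran from -0.28 to 0.42, Sox15 from -0.34 to 0.62 and Ggt6 from -0.020 to 0.30. The difference between experiments gave 1 lower gene at 16 CPM or more (Eya3), 4 lower and 1 higher in DESeq2 (Alox15, Eya3, Omd, Prr15 and Retn in all) and 1 lower without control embryo 2. Of genes called in experiments 1 and 3 at an adjusted p under 0.01, 15 of 23 lower and 29 of 52 higher genes kept their sign. Leaving out single embryos gave 30 to 48 and 38 to 57 at 0.05. The difference in genes detected was -31.1 without control embryo 2 (exact permutation p = 0.922). Omitting control embryo 2 from the difference test and the depth tests was added after seeing the data, as was leaving out single embryos in the counts of kept signs. The causes were not tested.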

Other observations

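The heat shock and proteasome genes of experiment 2 had no called member. Hsp90ab1, a cytosolic chaperone, had 135, 842 and 1203 CPM at the lowest, median and highest control embryo and 566, 1038 and 2014 CPM in knockdown embryos, with a log2 fold change of 0.45 (SE 0.28), and 0.26 without control embryo 2. H1f8, the linker histone of the oocyte, had 29.3, 57.2 and 133 CPM in control and 24.2, 69.8 and 566 CPM in knockdown embryos, with log2 fold changes of 0.75 (SE 0.48) in experiment 2, 0.95 in experiment 1 and -1.79 in experiment 3 (edgeR adjusted p = 0.0292 there). The mitochondrial gene mt-Co2 had 0.39 (SE 0.23), or 0.25 without control embryo 2, and the ubiquitin ligase gene Syvn1 0.79 (SE 0.32). The oocyte gene Oog1 had -0.44 (SE 0.21), or -0.17 without that embryo, and 93.4% of its 31-base words occur in other genes. The proteasome gene Psmd10 had -0.82 (SE 0.46), or -0.47 without that embryo, at medians of 4.58 CPM in control and 2.86 CPM in knockdown embryos. None of these passed in experiment 2 (edgeR adjusted p from 0.7995 to 0.865).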
